A study of Mus musculus with 6 samples.

Results

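The p53 pathway and the brakes on the cell cycle that it controls were followed through 10 mouse genes in tumours of NA13, a mouse bladder cancer cell line. The genes are Trp53, Mdm2, Cdkn2a, Cdkn1a, Ccng1, Sesn1, Bax, Phlda3, Trp53inp1 and Zmat3. They were taken by Entrez number from a count table of 15295 genes, in which all 10 were present, and all 10 passed the filter on low counts. Bulk RNA sequencing covered 6 libraries of whole tumours, called xenografts in the labels. Of these libraries, 3 were labelled with an shRNA against Ddr2 (shDdr2) and 3 with a scrambled shRNA (control). All 6 were from tumours given IgG, the strain is given as C57BL/6, and NA13 is a single line, so each group is a model of that line only. The labels name no animals, and the spread that each p-value rests on is that of these libraries, some of which may be technical.

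p53, the protein of Trp53, is a transcription factor that is stabilised when DNA is damaged or when oncogenes are active. It then switches on genes that stop the cell cycle, repair damage or kill the cell, together with Mdm2, whose product is the ubiquitin ligase that marks p53 for degradation and so closes a feedback loop. Cdkn2a feeds into the same circuit from above, and it is one of the loci often lost in bladder cancer. Much of p53 control acts on the protein, so mRNA levels of Trp53 itself say little of its activity.

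The DNA just upstream of these genes is shown with its matches to the p53 motif. This motif of 10 bases is bound by p53 and occurs in pairs in full binding sites. RefSeq windows (GRCm38.p6) running from 250 bases before to 50 bases after each start were found for 8 of the 10 genes, in 11 windows, and were searched for the consensus p53 motif, which reads the same on both strands. A match was present in 6 windows of 6 genes, against 8.36% of all 32841 windows of 300 bases. A pair of motifs with at most 13 bases between them was present in 24 of all windows (0.0731%), and 1 of these belonged to Cdkn1a. A match describes letters only and shows neither binding nor its absence. The upstream start of Cdkn1a is shown first because it holds the pair, with the motifs in capitals, 73 and 51 bases before the start (chr17:29090729-29090978, plus strand). Only exact matches were counted and put in capitals, so a stretch with 1 mismatch stays in lower case. The 10 bases directly after GAACATGTCT in Cdkn1a are such a stretch. The other 5 matches follow with 20 bases on either side, for Bax (chr7:45467070-45467119, minus strand), Mdm2 (chr10:117710915-117710964, minus strand), Ccng1 (chr11:40755442-40755491, minus strand), Trp53 (chr11:69580264-69580313, plus strand) and the downstream start of Sesn1 (chr10:41887246-41887295, plus strand).
Cdkn1a: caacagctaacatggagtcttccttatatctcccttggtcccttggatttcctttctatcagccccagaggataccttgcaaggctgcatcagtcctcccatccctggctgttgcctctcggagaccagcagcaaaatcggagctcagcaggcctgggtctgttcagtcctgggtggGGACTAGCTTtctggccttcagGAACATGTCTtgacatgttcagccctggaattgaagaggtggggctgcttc
Bax: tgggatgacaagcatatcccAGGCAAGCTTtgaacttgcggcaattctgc
Mdm2: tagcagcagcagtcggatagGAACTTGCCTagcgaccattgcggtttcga
Ccng1: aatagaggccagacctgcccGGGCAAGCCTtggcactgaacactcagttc
Trp53: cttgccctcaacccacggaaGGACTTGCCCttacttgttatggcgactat
Sesn1: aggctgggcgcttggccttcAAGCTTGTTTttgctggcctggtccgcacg

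Cdkn2a has 2 starts in the same table, and neither window holds the motif. Transcripts from the upstream start encode p19ARF, which binds Mdm2 and so protects p53, and those from the downstream start encode p16INK4a, which blocks the kinases CDK4 and CDK6. The transcripts share later exons, so a count per gene cannot tell the products apart. The 100 bases before each start are shown for that reason, both on the minus strand, the upstream start at chr4:89294620-89294719 and the downstream start at chr4:89282193-89282292.
Cdkn2a upstream: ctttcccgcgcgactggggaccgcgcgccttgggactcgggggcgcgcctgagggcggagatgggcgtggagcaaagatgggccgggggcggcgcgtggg
Cdkn2a downstream: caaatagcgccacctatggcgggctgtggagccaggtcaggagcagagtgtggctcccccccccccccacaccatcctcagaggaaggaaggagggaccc

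Before the genes are compared, several facts of the libraries bear on every value. Total counts ran from 15560571 to 19522985. Ddr2, the target of the shRNA, was at 4.84, 19.0 and 28.6 CPM in the libraries labelled shDdr2 1 to 3 and at 6.42, 16.7 and 20.5 CPM in control 1 to 3 (log2 fold change 0.27, SE 0.66). Its level in whole tumours therefore does not bear out the labels. The sum of 10 fibroblast and collagen genes also rose from library 1 to 3 in each group. It was 1275, 3825 and 10614 CPM with the label shDdr2, and 2487, 4387 and 5393 CPM in controls. Whole tumours do not give the level of Ddr2 in NA13 cells alone, so knockdown in those cells was not tested. Every direction below is between libraries as labelled. CPM is the count per 1000000 counts of a library scaled by TMM. The library labelled shDdr2 1 stood apart, at -85.2 on the first principal component (50.1% of the variance) with the others between -16.3 and 45.7. Of 15 epithelial markers of the labelled bladder cancer cell, 13 were measured and Upk1a and Upk3a were not analysed here. Their summed level was 6736 to 7524 CPM in libraries labelled shDdr2 and 7298 to 8022 CPM in controls, and most of that sum was Krt5, a basal keratin gene (5538 ± 394 and 5443 ± 507 CPM, SD, n = 3 each). By gene, 11 of the 13 had lower values in libraries labelled shDdr2 (42.9% of all genes did), with a median log2 fold change of -0.39, and 5 lay wholly lower (2.11% of all genes). Those of smallest p were Pparg, a nuclear receptor gene (3.81 ± 1.68 and 12.7 ± 3.58 CPM), and the tight junction gene Cldn4 (219.9 ± 21.2 and 364 ± 112 CPM), both at an unadjusted edgeR p under 0.05, and Krt18 (58.4 ± 19.2 and 92.2 ± 24.9 CPM), with 0 called. The part of this shift in the levels below was not tested. These are whole tumours, and fewer cells of a type and less RNA per cell cannot be told apart in any value below.

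All 10 genes were detected in every library, as was every gene of the table, whose lowest count is 1. None of the 10 was called different between the groups, which does not show that their levels were equal. With edgeR, which called 0 of 14498 genes higher (0%) and 0 lower (0%), the count was 0 of 10 members, with an adjusted p of 1.00 for each. At an unadjusted p under 0.05 edgeR gave 144 genes higher (0.993%) and 65 lower (0.448%), and again 0 of the 10 members. DESeq2 called 34 genes higher (0.235%) and 6 lower (0.0414%), and none of the 10. The groups overlapped in all 10 members, where 320 genes (2.21%) lay wholly higher and 306 (2.11%) wholly lower in libraries labelled shDdr2. Fitted values were higher in libraries labelled shDdr2 for 6 members and lower for 4, against 57.1% of all genes with higher and 42.9% with lower values. The median member had a log2 fold change of 0.09, beside 0.04 over all genes tested. Without the library labelled shDdr2 1 the count of members with higher values was 4 and the median was -0.11.

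**Figure D1:**
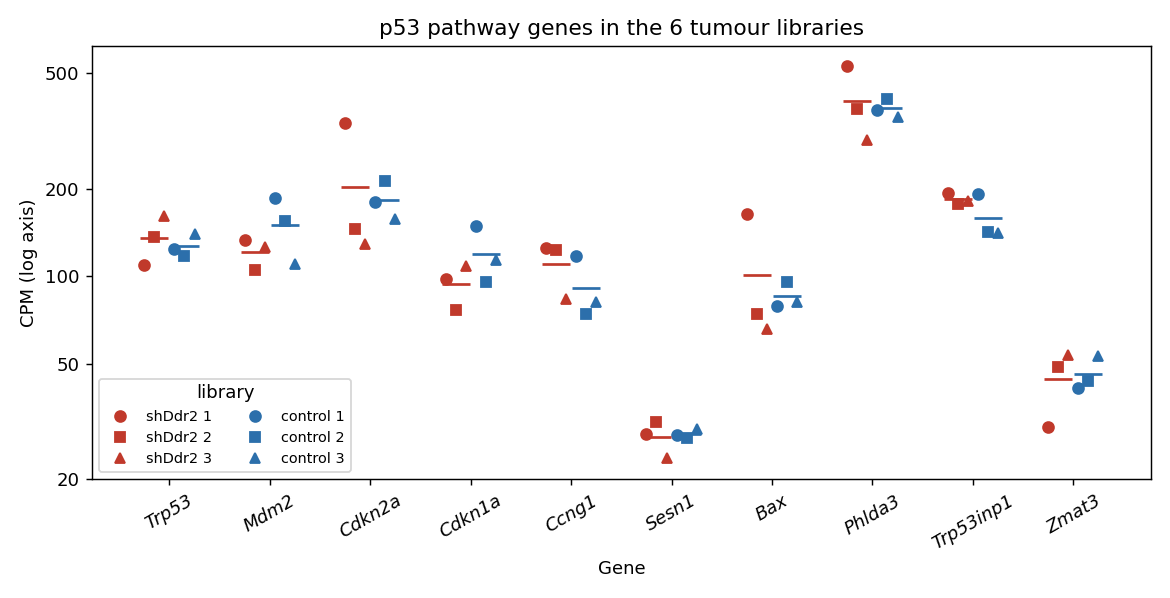
Level of each gene in CPM (log axis) in the 3 libraries labelled shDdr2 (red) and the 3 control libraries (blue), with a short line at each group mean and the marker shape giving the replicate number. The groups overlap in every gene, and the library labelled shDdr2 1 lies above the rest in Cdkn2a, Bax and Phlda3.

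Trp53, at the head of the pathway, was among the steadier members. It stood at 109.6, 137 and 161 CPM in the libraries labelled shDdr2 1 to 3, and at 124, 117 and 140.1 CPM in control 1 to 3. The lowest and the highest library were both labelled shDdr2, and the 3 controls lay between them. The log2 fold change was 0.09 (SE 0.21, 95% interval -0.40 to 0.59), and it was -0.047 without the library labelled shDdr2 3. The two-sided p of an exact permutation test was 0.7, and a comparison of 3 with 3 libraries cannot go below 0.1.

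Mdm2 and Cdkn1a, the feedback ligase and the best known target, had the lowest fold changes of the 10. Cdkn1a encodes p21, which inhibits cyclin-dependent kinases and arrests cells in G1. Cdkn1a was at 97.6, 76.3 and 109 CPM in the libraries labelled shDdr2 1 to 3, and at 149, 95.8 and 114 CPM in control 1 to 3. Control 1 was the highest library, and the library labelled shDdr2 2 the lowest. The log2 fold change was -0.34 (SE 0.24, 95% interval -0.91 to 0.22; edgeR adjusted p = 1.00), and it was -0.14 without control 1. Mdm2 was at 133, 105 and 126 CPM in the libraries labelled shDdr2 1 to 3, and at 186, 155 and 110.4 CPM in control 1 to 3. Control 1 was again the highest and the library labelled shDdr2 2 again the lowest. Control 3 lay within the range of the libraries labelled shDdr2, as control 2 did in Cdkn1a. The log2 fold change of Mdm2 was -0.31 (SE 0.24, 95% interval -0.88 to 0.26; edgeR adjusted p = 1.00), and it was -0.11 without control 1 and -0.49 without control 3. The exact permutation p was 0.3 for both genes. The annotated transcript AC167363.2 overlaps exons of Cdkn1a on the opposite strand, and without a stated strand setting its reads cannot be told apart from those of Cdkn1a.

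**Figure D2:**
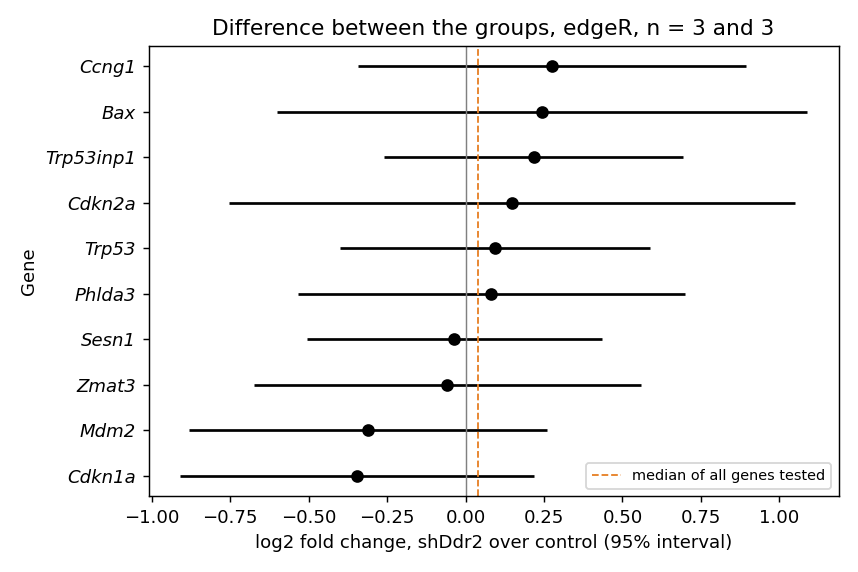
Log2 fold change of the libraries labelled shDdr2 over control for each gene (points) with its 95% interval from edgeR (lines), n = 3 and 3; the dashed line is the median of all genes tested, 0.04. Every interval includes 0, from Cdkn1a at -0.34 to Ccng1 at 0.28.

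Cdkn2a differed more between libraries of a group than between the groups. It was at 336, 145 and 129 CPM in the libraries labelled shDdr2 1 to 3, and at 181, 213 and 157 CPM in control 1 to 3. The library labelled shDdr2 1 was the highest of the 6 while the other 2 of its group were the lowest. The log2 fold change was 0.15 (SE 0.38, 95% interval -0.75 to 1.05). Without the library labelled shDdr2 1 it was -0.42, with an unadjusted edgeR p of 0.0473 and an adjusted p of 0.71. Its neighbours on chromosome 4 were measured in all 6 libraries as well. Cdkn2b, which encodes the related inhibitor p15INK4b, was at 28.4 ± 4.99 CPM in libraries labelled shDdr2 and at 31.8 ± 11.4 CPM in controls. Mtap, a gene of methionine salvage, was at 90.2 ± 14.5 CPM in libraries labelled shDdr2 and at 80.4 ± 26.7 CPM in controls (SD, n = 3 each).

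Of the genes that act on survival and growth downstream of p53, Bax was split in the same way as Cdkn2a. Bax, which opens pores in the outer mitochondrial membrane during apoptosis, was at 164, 73.9 and 65.9 CPM in the libraries labelled shDdr2 1 to 3, and at 79.2, 95.2 and 81.7 CPM in control 1 to 3. The log2 fold change was 0.24 (SE 0.36, 95% interval -0.60 to 1.09) and -0.29 without the library labelled shDdr2 1. The annotated gene Gm45808 overlaps exons of Bax on the same strand, so reads could not be assigned with certainty there. Phlda3, whose product competes with the kinase Akt for membrane lipids, was at 532, 376 and 294 CPM in the libraries labelled shDdr2 1 to 3, and at 375, 407 and 354 CPM in control 1 to 3. Its log2 fold change was 0.08 (SE 0.26, 95% interval -0.53 to 0.70) and -0.18 without the library labelled shDdr2 1. In both genes the highest and the lowest library were labelled shDdr2.

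Ccng1 and Trp53inp1 had higher mean values in the libraries labelled shDdr2, without passing the test. Ccng1, whose product cyclin G1 brings a phosphatase to Mdm2, was at 125, 123 and 83.2 CPM in the libraries labelled shDdr2 1 to 3, and at 118, 74.2 and 81.7 CPM in control 1 to 3. For cyclin G1 the fitted difference was 0.28 on the log2 scale (SE 0.26, 95% interval -0.34 to 0.89; exact permutation p = 0.2), and it was 0.52 without control 1 and 0.15 without control 2. Trp53inp1, whose product promotes p53 activity and autophagy, was at 193, 177 and 182 CPM in the libraries labelled shDdr2 1 to 3, and at 192, 142 and 141 CPM in control 1 to 3. Control 1 was the control library within the range of the libraries labelled shDdr2. The log2 fold change of Trp53inp1 was 0.22 (SE 0.20, 95% interval -0.26 to 0.69), and leaving out 1 library gave 0.14 (without control 3) to 0.39 (without control 1).

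Sesn1 and Zmat3 had fold changes closest to 0. Sesn1, a sestrin that restrains mTORC1 signalling under stress, was at 28.6, 31.4 and 23.7 CPM in the libraries labelled shDdr2 1 to 3, and at 28.3, 27.7 and 29.8 CPM in control 1 to 3. It had the smallest range of the 10, with the highest library 1.33 times the lowest. Its log2 fold change was -0.04 (SE 0.20, 95% interval -0.50 to 0.43), and it was 0.069 without the library labelled shDdr2 3. The annotated transcript 9930024M15Rik lies within the span of Sesn1 without overlapping its exons. Zmat3, which encodes an RNA-binding zinc finger protein, was at 30.2, 48.6 and 53.5 CPM in the libraries labelled shDdr2 1 to 3, and at 41.1, 43.5 and 53.1 CPM in control 1 to 3. Its log2 fold change was -0.06 (SE 0.26, 95% interval -0.67 to 0.56), and it was 0.15 without the library labelled shDdr2 1, which held its lowest value, and 0.059 without control 3.

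Per length, the 10 genes ran from below the median gene to near the top of all genes. RPKM divides the CPM by the exonic length in kilobases of GENCODE M21, and the median of the 13870 tested genes with a length was 6.56 RPKM. Phlda3 was highest at 249.9 ± 50.8 RPKM (SD over 6 libraries), followed by Cdkn2a at 165 ± 64.7 and Bax at 59.2 ± 22.7. A group of 5 genes came next, with Trp53 at 32.5 ± 4.57, Cdkn1a at 30.1 ± 6.86, Ccng1 at 28.7 ± 6.70, Mdm2 at 26.8 ± 5.99 and Trp53inp1 at 26.4 ± 3.68 RPKM. The ranges of neighbours in this group overlapped, and their order was not the same in all 6 libraries. Sesn1 followed at 7.09 ± 0.656 and Zmat3 at 3.93 ± 0.770 RPKM, each with a range apart from its neighbours in the order. Phlda3 was above Cdkn2a in 6 of 6 libraries although their ranges overlapped.

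The spread of the 10 genes between libraries of a group differed from gene to gene. Within groups, 8 of 10 members had an SD of log2 CPM under the median of all genes, and 6 of 10 under the median of genes within 0.5 log2 CPM of their own level. The exceptions on the first measure were Bax and Cdkn2a, each of which had its highest value in the library labelled shDdr2 1. That library held the highest value of 5 members (Cdkn2a, Bax, Phlda3, Ccng1 and Trp53inp1) and the lowest of 2 (Trp53 and Zmat3). The library labelled shDdr2 3 held the lowest value of 4 members, and control 1 the highest of 2.

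**Figure D3:**
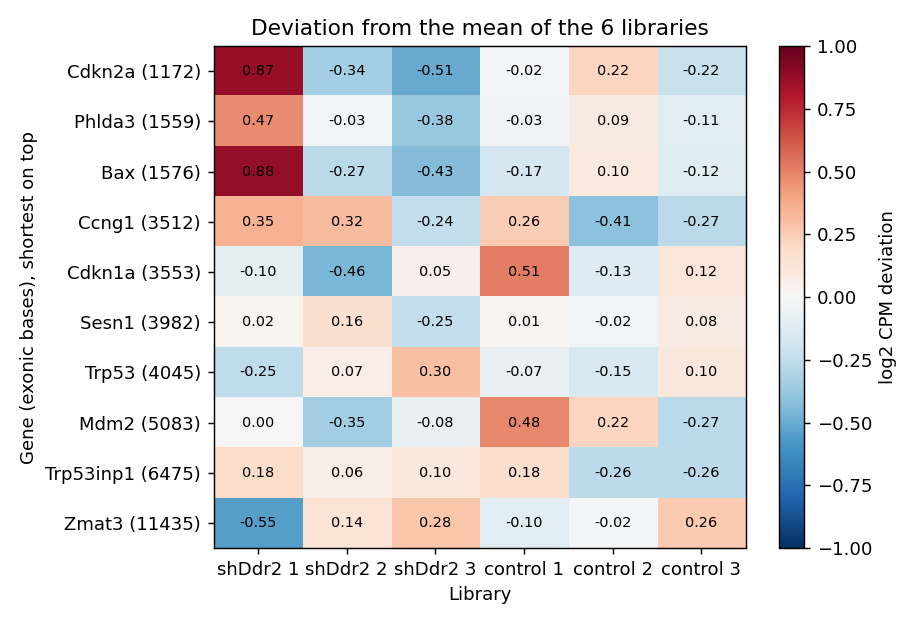
Log2 CPM of each gene in each library minus its mean over the 6 libraries, with genes ordered from the shortest (top) to the longest exonic length. In the library labelled shDdr2 1 the 3 shortest genes deviate by 0.87, 0.47 and 0.88 and the longest, Zmat3, by -0.55.

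In the library labelled shDdr2 1 the shortest genes lay high and the longest low, but the 10 deviations did not follow exonic length throughout. Its deviation from the mean of the 6 libraries was 0.87 for Cdkn2a (1172 exonic bases), 0.47 for Phlda3 (1559) and 0.88 for Bax (1576), the 3 shortest of the 10. It was -0.55 for Zmat3, the longest (11435). Between them stood Ccng1 at 0.35 (3512), Cdkn1a at -0.10 (3553), Sesn1 at 0.02 (3982), Trp53 at -0.25 (4045), Mdm2 at -0.0048 (5083) and Trp53inp1 at 0.18 (6475). Over all genes the median deviation in that library was 0.79 in 584 genes under 1000 bases, 0.44 between 1000 and 2000, and -0.48 in 2341 genes over 8000. In the other 5 libraries the medians for genes under 1000 bases ran from -0.43 in the library labelled shDdr2 3 to 0.18 in control 1. With each library's trend on length and GC content taken out, the deviation in the library labelled shDdr2 1 was -0.05 for Zmat3 and 0.67 for Cdkn2a, while Bax was at 0.85 and Phlda3 at 0.42. The fold changes fitted with these trends as offsets were 0.11 for Cdkn2a, 0.28 for Bax and 0.11 for Phlda3. That fit called 0 of the 10 genes, and over all 13870 genes it called 0 higher and 0 lower.

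**Figure D4:**
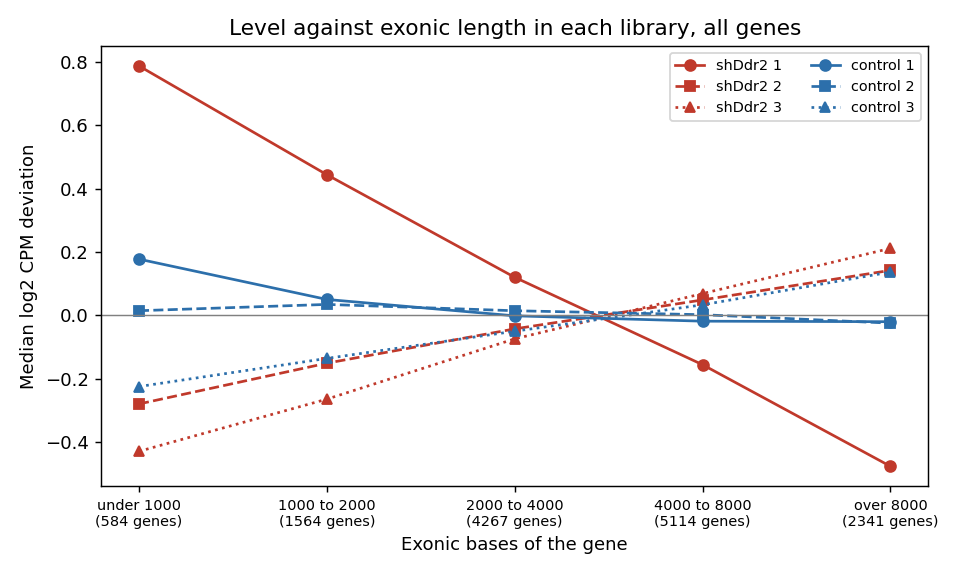
Median log2 CPM deviation from the mean of the 6 libraries over all genes with a length, in 5 bins of exonic length, with 1 line per library (red labelled shDdr2, blue control). The library labelled shDdr2 1 runs from 0.79 in the shortest to -0.48 in the longest genes.

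The genes whose levels over the 6 libraries were most like those of Trp53, Cdkn1a and Cdkn2a were sought among 10428 others, as a description over 6 libraries of 2 groups. With so many genes and so few libraries, near-perfect likeness is common. The levels compared still held each library's trend on length and GC content, and likeness without these trends was not computed. For Trp53 they were Myo19, Pi16 and Frmd4a, with Pearson r of log2 CPM from 0.985 to 0.998. For Cdkn1a they were Il1a (interleukin 1 alpha), the chemokine Cxcl1 and the epithelial transcription factor Grhl3, with r from 0.97 to 0.99. Il1a was at 8.23, 4.48 and 17.3 CPM in the libraries labelled shDdr2 1 to 3, and at 46.4, 9.56 and 19.7 CPM in control 1 to 3, with the same library highest and the same lowest as in Cdkn1a. For Cdkn2a they were Rpl18, Sdhaf1 and Brk1, with r from 0.995 to 0.998. Rpl18, a ribosomal protein gene, was at 296, 101 and 88.2 CPM in the libraries labelled shDdr2 1 to 3, and at 142, 167 and 120.1 CPM in control 1 to 3, and so had the order of Cdkn2a.

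Other textbook targets of p53 had a median near 0. Of 34 listed genes, 33 were tested and Rprm was not analysed here. With 0 called, 13 had higher and 20 lower values, where 42.9% of all genes had lower values. The median log2 fold change was -0.02, beside 0.04 over all genes tested. At an unadjusted edgeR p under 0.05 there was 1 gene, Ak1, an adenylate kinase, at 22.8 ± 7.10 CPM in libraries labelled shDdr2 and 12.3 ± 3.05 CPM in controls (log2 fold change 0.89, edgeR adjusted p = 1.00). The groups did not overlap in 7 of the 33, with 2 higher (Ak1 and Psrc1), against 2.21% of all genes, and 5 lower (Pmaip1, Ddit4, Epha2, Gdf15 and Polk), against 2.11% of all genes. Psrc1 and Polk are named for their lack of overlap after their values were seen. Pmaip1, which encodes the apoptosis activator Noxa, was at 95.4, 70.6 and 109.9 CPM in the libraries labelled shDdr2 1 to 3, and at 190.0, 122 and 113 CPM in control 1 to 3. Its log2 fold change was -0.62 (SE 0.28, edgeR adjusted p = 1.00). Ddit4, an inhibitor of mTORC1 that also responds to hypoxia, was at 156 ± 28.6 and 216 ± 25.6 CPM in the libraries labelled shDdr2 and the controls. Epha2, an ephrin receptor, was at 144 ± 42.6 and 206 ± 23.5 CPM, and Gdf15, a stress-induced cytokine, at 1.83 ± 0.0968 and 3.18 ± 1.37 CPM in the same order of groups (SD, n = 3 each).

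Regulators of p53 had a narrower range of fold changes than the targets. Of 24 genes tested, 0 were called, and 11 had higher and 13 lower values, where 42.9% of all genes had lower values. The median log2 fold change was -0.02 with a range from -0.34 to 0.48. The ubiquitin ligase gene Cop1 was at 38.2 ± 5.29 CPM in libraries labelled shDdr2 and 33.0 ± 1.63 CPM in controls. Trp53bp2, which encodes the p53 partner ASPP2, was at 30.1 ± 11.5 and 38.2 ± 4.06 CPM, and its inhibitory relative Ppp1r13l at 96.2 ± 24.5 and 113 ± 13.9 CPM. The DNA damage kinase gene Atm was at 45.3 ± 11.8 and 37.9 ± 6.71 CPM, with the libraries labelled shDdr2 first (SD, n = 3 each). Trp53bp1, a gene of DNA break repair, had a log2 fold change of 0.21 (SE 0.24). None of these 5 genes had an unadjusted edgeR p under 0.05, and the smallest was 0.318 for Cop1.

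**Figure D5:**
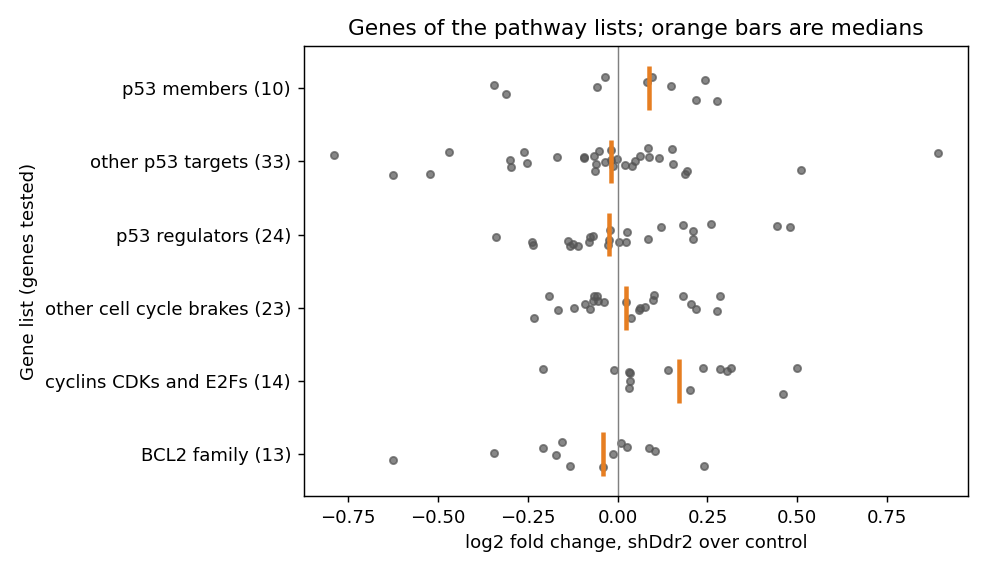
Log2 fold change of the libraries labelled shDdr2 over control for each tested gene (points) of 6 lists, with the median of each list as an orange bar. Medians lie between -0.04 for the BCL2 family and 0.17 for cyclins, CDKs and E2Fs, and 0 genes shown were called.

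Brakes outside the 10 genes, cyclins with their kinases, and proliferation markers were set beside the 57.1% of all genes with higher values. Among 23 other brakes, 12 had higher and 11 lower values, 0 were called, and the median log2 fold change was 0.02. Of these brakes, 1 lay wholly higher (2.21% of all genes did) and 0 wholly lower (2.11% of all genes did). Tob1, an antiproliferative protein gene, was at 86.3 ± 4.90 CPM in libraries labelled shDdr2 and 70.9 ± 5.99 CPM in controls without overlap (log2 fold change 0.28, edgeR adjusted p = 1.00). Rbl1, which encodes the pocket protein p107, was at 107 ± 28.1 and 88.5 ± 6.84 CPM, and the mitosis-delaying kinase gene Wee1 at 63.5 ± 0.790 and 55.1 ± 9.54 CPM. Btg1 was at 577 ± 87.3 and 678 ± 83.3 CPM, and Cdkn1b, which encodes p27, at 111 ± 21.9 and 127 ± 24.2 CPM, libraries labelled shDdr2 first (SD, n = 3 each). Of 14 cyclins, CDKs and E2Fs, 12 had higher and 2 lower values, with a median of 0.17. Ccna2 (cyclin A2) was at 109 ± 18.4 and 89.6 ± 14.9 CPM, Ccne1 at 24.4 ± 13.8 and 17.2 ± 2.25 CPM and Ccne2 at 18.3 ± 10.1 and 13.3 ± 2.30 CPM in the same order. All 14 proliferation markers had higher values (median 0.27), with Bub1, Bub1b and Kif20a of smallest p, and 0 were called in either list. The lists share Ccnb1 and Cdk1 and are not independent. Proliferation markers summed to 1636, 1713 and 1242 CPM in the libraries labelled shDdr2 1 to 3, and to 991, 1431 and 1444 CPM in control 1 to 3. The groups overlapped, with control 1 the lowest library and that labelled shDdr2 3 below both other controls.

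The BCL2 family, in which Bax acts, had 5 members with higher and 8 with lower values among 13 tested, where 42.9% of all genes had lower values. The median log2 fold change was -0.04 with 0 called, and Hrk was not analysed here. After Pmaip1, the members of smallest p were Bmf, a killer protein gene of the family, at 17.7 ± 4.76 CPM in libraries labelled shDdr2 and 22.5 ± 9.27 CPM in controls, and Bcl2l1, the gene of the survival protein BCL-XL, at 62.2 ± 7.11 and 70.0 ± 17.3 CPM (SD, n = 3 each).

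Markers of other cell types differed between libraries as well, and their part in the levels of the 10 genes was not tested. Keratinocyte markers (9 of 10 tested) summed to 637 to 3347 CPM in libraries labelled shDdr2, highest in that labelled shDdr2 1, and to 669.6 to 967 CPM in controls. Fibroblast and collagen genes (10 of 10) summed to 1275 to 10614 CPM, lowest in the library labelled shDdr2 1, against 2487 to 5393 CPM in controls. Skeletal muscle genes (11 of 12) summed to 450.5 to 3425 CPM in libraries labelled shDdr2 and to 10.4 to 118 CPM in controls. Macrophage genes (10 of 10) summed to 662 to 1066 and 540.3 to 912 CPM, endothelial genes (8 of 8) to 92.9 to 449 and 156 to 309.6 CPM, and T cell genes (7 of 8, without Cd3e) to 6.72 to 28.1 and 4.69 to 34.5 CPM, libraries labelled shDdr2 first. No marker measured was at 0 in any library, since the table holds no zeros.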

How the data were processed

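RNA of whole tumours was measured in 6 libraries by poly-A selected, paired-end sequencing of 150 bp, per the labels' protocols. Bowtie2 2.1.0, RSEM 1.2.31, limma and the build GRCm38.p5 were used per the submitters' processing notes, which give no role for each. The authors deposited a whole-number count for each Entrez gene, possibly rounded from estimates, and log2 values. With 1 scaling factor per library and 1 added before the log, 91753 of 91770 deposited log2 values gave back the count within 0.05. The lowest count is 1, so genes at 0 in some library are not analysed here. For annotation, gene filter, strand setting and shared reads the answer is not given in the sources used here. Overlapping, antisense and near-identical genes are therefore uncertain.

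Counts were used as deposited. Symbols came from RefSeq by Entrez number (14876 matched, 419 did not), and loci, lengths and GC content (of the longest transcript) from GENCODE M21 on GRCm38. Genes passed filterByExpr (14498), libraries were scaled by TMM, and groups were compared in R 4.3.3 by edgeR 4.0.16 (robust quasi-likelihood fit and F test), with Benjamini-Hochberg adjustment over all genes and a threshold of 0.05. Log2 CPM used a prior count of 2. Exact permutation tests are two-sided over 20 assignments. Alternatives were other scalings and filters, DESeq2 1.42.0, limma 3.58.1 (with voom, or fitted to the deposited log2 values), no robust fitting, a replicate block, and leaving out each library. Offsets for length and GC, and the counts of members and of other targets by direction, were added after seeing the data. The 10 genes, the 14 other lists and the tests were chosen with earlier results of these data known. The genes named from each list are those of smallest unadjusted p, 5 for other p53 targets, regulators and other brakes and up to 3 for the rest. The genes named as alike have the highest r among genes with an average log2 CPM of at least 3.

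Counts of the 14498 genes tested were simulated for this comparison, drawn independently for each gene, with 200 changed. The simulated counts were filtered again, which left 14351 genes. The share recovered was 3.70% at a log2 change of 1, 80.7% at 2 and 91.9% at 3, while 7 of 113 calls were false. The simulation held no shift shared by many genes of a library, such as those with length or replicate number. In the data, 11 skeletal muscle genes had a median log2 fold change of 4.76 with 0 called, so these rates need not hold for the data. Same-numbered libraries deviated together from their group means across genes (r of 0.299, 0.267 and 0.253 for numbers 1, 2 and 3, from the sample titles), so the numbers were treated as pairs in the blocked fit. Of the 6 pairs with different numbers, shDdr2 2 with control 3 was as high (r of 0.254) and the other 5 were below 0. No libraries of a group agreed within counting noise (chi-square over its degrees of freedom was 24.8 or more).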

Additional observations from a re-analysis of the deposited data

How the results depend on the processing

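None of the 10 genes was called under any of the 17 alternatives. Apart from DESeq2, each alternative called 0 genes higher and 0 lower over the whole table, so none of the 10 could be among the calls. With the replicate block, on the pairs given by the sample titles, the median member was at 0.03 and 0 genes were called higher and 0 lower over the whole table, as with all libraries and no block; the block changed no call. DESeq2 called 34 genes higher and 6 lower, against 0 and 0 by edgeR. Outside the fits that left out a library, all 10 genes kept their direction. Leaving out 1 library gave ranges of -0.047 to 0.23 for Trp53, -0.13 to 0.069 for Sesn1, -0.29 to 0.47 for Bax, -0.22 to 0.15 for Zmat3, -0.18 to 0.26 for Phlda3, -0.42 to 0.39 for Cdkn2a and -0.28 to 0.71 for Ddr2. The sign turned without the library labelled shDdr2 1 in Bax, Zmat3, Phlda3 and Cdkn2a, without that labelled shDdr2 3 in Trp53, Sesn1 and Ddr2, without control 1 in Ddr2 and without control 3 in Zmat3 (0.059). The cause was not tested beyond the length offsets. The count of other p53 targets with lower values ran from 17 to 22 over the alternatives. The recovery rates on simulated counts are over genes of all spreads and were not computed for these 10, whose own precision is the interval given with each.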
